A study of Oryza sativa with 8 samples.

Results

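Each locus described here is a rice gene with at least 1 array probe of a particular pattern. That probe gave a clear signal in every root sample grown with ample ammonium. It gave no clear signal in any root sample grown with very little, although other probes of the same gene could. Roots of the rice cultivar Koshihikari were grown for 10 days in 1 mM NH4Cl or in 0.005 mM NH4Cl, and total RNA from whole roots was hybridised to 1-colour Agilent oligonucleotide arrays, with 4 biological replicates at 1 mM and 4 at 0.005 mM. Both groups are the same cultivar at the same age and differ in the concentration of ammonium chloride.

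A locus was taken as a member when at least 1 of its probes was flagged by the scanner software as well above background on all 4 arrays at 1 mM and on none of the 4 arrays at 0.005 mM, was free of outlier flags, and had a mean processed signal at least 2 log2 units higher at 1 mM. Levels throughout are the log2 processed signal of a spot minus the 75th percentile of that array, so that 0 is the level that 75% of spots do not reach and most values are negative. By this rule 206 of the 29689 loci named on the array were members, through 238 of 41889 probes. They made up 0.696% of the 29593 loci with a probe free of outlier flags. The mirrored rule, clear signal at 0.005 mM alone, was met by 101 loci and 106 probes, or 0.341% of the same loci. The members were thus chosen by the detection flags and signals of this contrast, and their differences between 1 mM and 0.005 mM are given as a description with no test.

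Ammonium is the main form of nitrogen in flooded rice soil. Roots take it up through ammonium transporters and assimilate it into glutamine and glutamate by glutamine synthetase and glutamate synthase, and the amino groups then travel to the shoot as amides. An array probe that is not well above background places the RNA below what that spot can separate from the glass and from non-specific binding. Such a reading is an upper bound on the RNA and does not mean that the gene is off. In bulk roots, fewer cells of a type that hold an RNA and less of that RNA in each cell cannot be told apart.

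The arrays were alike in detection and saturation. Between 81.4% and 85.2% of spots were well above background on each array, and none was saturated. They differed at the dim end. The dimmest level well above background ran from -8.30 to -7.41 over the arrays at 1 mM and from -8.01 to -7.49 at 0.005 mM. They also differed in scale by group. The 75th percentile minus the level of the spike-in control probes was -1.12 to -0.88 log2 units at 1 mM and -0.68 to -0.57 at 0.005 mM. Arrays of the same group correlated at 0.992 to 0.997, against 0.924 to 0.934 between groups. These correlations left out dim probes, since they used probes well above background on at least 4 of 8 arrays, the brightest for each locus. The 4 arrays at 1 mM lay on 1 slide and were scanned together, and the 4 arrays at 0.005 mM lay on another, so the ammonium supply and the slide cannot be told apart in any value below. All 4 root marker loci on the fixed list were detected on all 8 arrays, and limma called 1 of them higher and 3 lower at 1 mM. The differences were -0.99 to -0.77 log2 units for those 3 and 0.94 for the other, Os02g0662000. The summed level of the root markers was 6.99 to 7.05 at 1 mM and 6.91 to 7.01 at 0.005 mM. All 10 green-tissue markers, which encode Rubisco small subunits, chlorophyll-binding proteins and other parts of photosynthesis, were detected on all 8 arrays too. Their summed level was 8.17 to 8.36 at 1 mM and 6.81 to 6.99 at 0.005 mM, and 7 of the 10 were at least 1 log2 unit higher at 1 mM. None of the green-tissue markers was among the members, and the part of such RNA in the members' values was not tested.

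By the probes that passed the rule, the brightest member was Os02g0120100 on chromosome 2. Its level was 1.21, 1.32, 1.27 and 1.37 on the 4 arrays at 1 mM, and -8.97, -8.72, -9.70 and -8.50 on the 4 arrays at 0.005 mM. The replicates at 1 mM lay within 0.163 of each other, and the measured difference was 10.26 log2 units. A second probe of the same locus also passed the rule, with -1.80, -1.25, -1.04 and -1.18 at 1 mM against -9.98 to -9.64 at 0.005 mM. The signal at 0.005 mM was only an upper bound, so the fold was computed against the higher of the probe's own signal and the dimmest signal well above background on each array at 0.005 mM. On that scale Os02g0120100 was at least 508-fold higher at 1 mM, the highest bound of all members. This and the folds below hold for the processed signal scaled on the 75th percentile. In log2 units the bound of Os02g0120100 was 8.989 so, 8.609 with spike-in scaling and 7.125 with a normexp background correction of the median signal.

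Os10g0334500 on chromosome 10 came next, at 0.41, 0.44, 0.35 and -0.11 at 1 mM against -9.77, -9.56, -9.55 and -8.76 at 0.005 mM. It was at least 251-fold higher at 1 mM. Os06g0559400 had 2 probes that both passed. The brighter had -1.03, 0.50, 0.98 and 0.35 at 1 mM and -8.99, -9.03, -8.67 and -8.50 at 0.005 mM, a bound of 238-fold. Its first replicate at 1 mM stood about as far below the other three on the second probe, at -1.04 against 0.32 to 0.95. These were the only members whose brightest passing probe had a mean at 1 mM above the array's 75th percentile, 3 of 206 or 1.46%. Among all 34624 probes detected on the 4 arrays at 1 mM the share was 31.2%, but the rule kept only probes undetected at 0.005 mM. Other probes of some members were brighter, such as a probe of Os12g0503000 with a mean of 3.22 at 1 mM.

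The 5 further members with bounds from 105-fold to 185-fold split by how even they were among replicates. Os01g0138800 had -0.47, -0.52, -0.51 and -0.34 at 1 mM against -9.43, -8.60, -8.21 and -7.84 at 0.005 mM, and a bound of 146-fold. Os07g0475900 had -0.42, -0.24, -0.07 and -0.05 at 1 mM against -8.97, -9.33, -9.59 and -10.08 at 0.005 mM, and a bound of 181-fold. Os01g0963000 had -0.90, -0.92, -1.03 and -0.85 at 1 mM against -7.95, -8.22, -7.61 and -7.78 at 0.005 mM, and a bound of 105-fold. These 3 loci kept the 4 arrays at 1 mM within 0.37 log2 units. The other two did not. Os10g0452900 had 0.51, -0.28, -0.69 and -0.21 at 1 mM against -8.85, -8.30, -9.78 and -10.27 at 0.005 mM, a bound of 185-fold. Os06g0142200 had -2.05, -0.27, 0.31 and -1.63 at 1 mM against -9.72, -9.49, -9.53 and -10.02 at 0.005 mM, a bound of 110-fold. In both the gap between the groups was still larger than the spread within either, but the rule itself chose loci with separated groups.

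**Figure D1:**
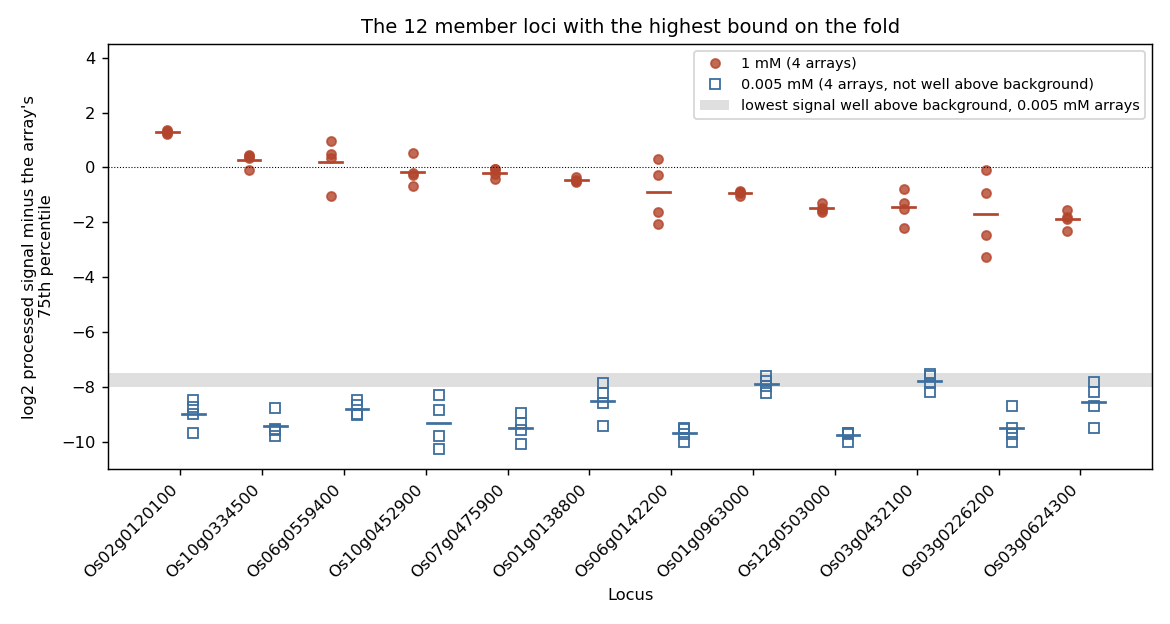
Level of the 12 members with the highest bound on the fold (vertical axis, log2 processed signal minus the array's 75th percentile), with filled circles for the 4 arrays at 1 mM, open squares for the 4 arrays at 0.005 mM, and short lines for group means. The grey band spans the dimmest signals well above background on the arrays at 0.005 mM, from -8.01 to -7.49. Os02g0120100 and Os01g0963000 form tight groups at 1 mM, while Os03g0226200 spreads over 3.15 log2 units.

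Only 4 members are given a gene name here. The array files list loci and transcripts and no descriptions, and the gene table used for names holds no locus identifiers of this kind, so each link between a locus and a symbol came from general knowledge and was kept where the position of the locus among its neighbours fitted the position of the symbol in the RefSeq gene table. The remaining members are given by locus alone.

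PPDK2 (Os03g0432100, chromosome 3) encodes a pyruvate orthophosphate dikinase, an enzyme that interconverts pyruvate and phosphoenolpyruvate. It was picked out for naming after its values were seen. Its brighter passing probe had -2.20, -1.30, -0.78 and -1.53 at 1 mM and -7.51, -8.17, -7.60 and -7.85 at 0.005 mM. It was at least 70.8-fold higher at 1 mM. A second passing probe had a mean of -4.55 at 1 mM and -9.89 at 0.005 mM. The third probe of the locus was detected on 3 of the 4 arrays at 0.005 mM, with means of -1.32 at 1 mM and -7.44 at 0.005 mM, so PPDK2 RNA sat at the edge of detection at 0.005 mM.

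NSHB2 (Os03g0226200, chromosome 3) encodes a nonsymbiotic hemoglobin, a family that binds oxygen tightly and converts nitric oxide to nitrate, and whose genes are known to be induced in plant roots short of oxygen. It had -3.26, -0.94, -0.11 and -2.45 at 1 mM against -9.71, -8.70, -9.51 and -10.00 at 0.005 mM. The bound was 64.3-fold. The mean at 1 mM was -1.69 ± 1.43 (SD, n = 4), the second largest SD of any member. A second passing probe gave the same order of arrays, at -3.43, -1.02, -0.21 and -2.49 at 1 mM against -9.59, -9.36, -9.37 and -9.61 at 0.005 mM.

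SUS3 (Os07g0616800, chromosome 7) encodes a sucrose synthase, which splits sucrose with UDP into UDP-glucose and fructose. It too was picked out for naming after its values were seen. It had -5.78, -6.32, -6.11 and -6.14 at 1 mM against -7.89, -8.20, -9.07 and -9.08 at 0.005 mM, and the bound was 3.05-fold. GLUA1 (Os01g0762500, chromosome 1) encodes a glutelin, a storage protein of the seed. It had -6.58, -5.61, -6.40 and -6.25 at 1 mM against -9.03, -8.77, -8.51 and -8.67 at 0.005 mM, and a bound of 2.80-fold. SUS3 and GLUA1 were dim on every array.

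Most members were dim in the same way on the probe that passed. The mean level at 1 mM ran from -7.36 to 1.29 with a median of -5.66 and quartiles at -6.42 and -4.48, whereas the median of all probes detected at 1 mM was -1.36. The measured difference between 1 mM and 0.005 mM ran from 2.001 to 10.26 log2 units with a median of 3.37. The bound, which does not credit signal below the dimmest detected spot, ran from 1.26-fold to 508-fold with a median of 4.10-fold. It reached 4-fold in 107 members, 8-fold in 61, 16-fold in 31 and 64-fold in 11, and stayed under 2-fold in 28. For those 28 loci the data place the signal at 1 mM above the detection limit, but with a fold that could be small. The member list depends on the signal used and on the detection flag. With the median spot signal and a normexp background correction in place of the processed signal, 41 of the 206 loci still met the rule, and with the weaker flag of the scanner software in its place 74 loci met it, 49 of them members.

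**Figure D2:**
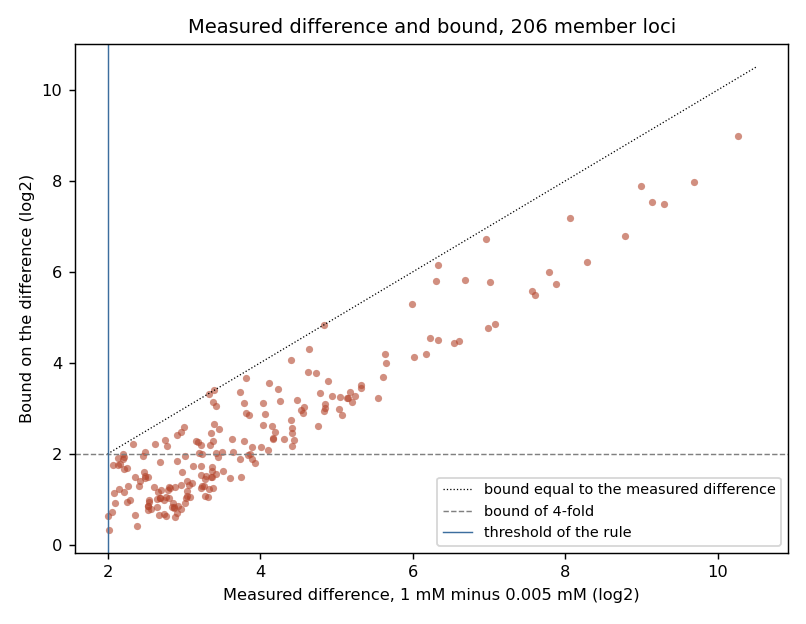
Measured difference between 1 mM and 0.005 mM (horizontal axis, log2) and the bound on that difference (vertical axis, log2) for each of the 206 members, 1 point a locus. The points lie on or below the dotted line of equality, and 99 of them lie under the dashed line of a 4-fold bound.

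The 3 members nearest the threshold were Os09g0507300, Os06g0229800 and Os12g0131200, with differences of 2.001, 2.02 and 2.05. Their means at 1 mM were -7.05, -7.36 and -6.97, and their bounds were 1.56-fold, 1.26-fold and 1.65-fold. The 3 loci nearest on the other side were Os04g0595700, Os01g0728800 and Os05g0269800, with the same detection pattern and largest differences of 1.99, 1.96 and 1.95. In all, 247 loci had the detection pattern at any size of difference, 41 of them under the threshold, and 136 loci had the mirrored pattern. Among the 5465 probes that were not well above background on any array at 0.005 mM, 5.14% were so on all 4 at 1 mM. Of 4930 probes off on all arrays at 1 mM, 2.88% were well above background on all 4 at 0.005 mM. Loci with 1 stray detection at 0.005 mM lie just outside the rule, and 59 further loci had a probe on all 4 arrays at 1 mM and on 1 at 0.005 mM with a difference of at least 2.

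How far below detection the members sat at 0.005 mM also varied. The scanner software sets a second, weaker flag for a signal that is positive and significant against the local background. That flag was set on none of the 4 arrays at 0.005 mM for 38 members, on 1 for 41, on 2 for 33, on 3 for 28 and on all 4 for 66. Thus 168 of 206 members had some signal over the local background on at least 1 array at 0.005 mM. The share of this flag among the other undetected probes was not counted, so these counts are not read as a trait of the members. Os06g0142200 was among those without it, and Os01g0138800, Os01g0963000 and PPDK2 had it on all 4.

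Across the whole array, limma (Benjamini-Hochberg, adjusted p under 0.05) called 8050 of 24961 units higher at 1 mM, or 32.3%, and 10945 lower, or 43.8%. A unit is a locus, read by its brightest probe, or a probe with no locus. Scaled on the spike-in probes in place of the 75th percentile, the same fit called 4021 units higher and 16074 lower. Of the members, 203 were called higher and 0 lower, a count that follows from the rule and is given only as a description. For 31 members the brightest probe of the locus, which entered that fit, was a probe that had not passed the rule. The 3 members not called were among them. Os08g0127900 had a difference of 0.02 ± 0.12 (SE), Os11g0701100 one of 0.05 ± 0.55 and Os03g0859100 one of 0.13 ± 0.20 on the log2 scale.

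A locus could therefore be dark at 0.005 mM on 1 probe and bright on another. Of the members, 141 had 1 probe on the array and 65 had several. All probes passed in 19 of the 65. The remaining 74 probes of member loci were higher by at least 2 log2 units at 1 mM in 43 cases, with a median difference of 2.35. None of those lower at 1 mM was both detected and lower by 1 log2 unit or more. The 74 included 34 probes detected on all 8 arrays, 11 on none of the 8, and 1 with the members' pattern and a difference under 2. Another 16 were detected on all 4 arrays at 1 mM and on some at 0.005 mM. A probe of Os03g0859100 was detected on 1 array at 1 mM and 2 at 0.005 mM. A probe of Os06g0202600 was detected on no array at 1 mM and on 1 at 0.005 mM. For 34 of the 65 members with several probes, another probe was well above background on at least 1 array at 0.005 mM. For 20 of these a probe was so on all 4. In 172 members no other probe was detected at 0.005 mM, but 141 of them had no other probe on the array.

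Os12g0503000 on chromosome 12 is an example. The probe that passed had -1.64, -1.55, -1.28 and -1.48 at 1 mM against -9.67, -9.72, -9.70 and -10.00 at 0.005 mM, a bound of 74.0-fold. The locus had 6 probes on the array. The brightest 3 were detected on all 8 arrays, with means of 3.22, 3.18 and 3.16 at 1 mM against -4.85, -4.64 and -4.74 at 0.005 mM. Their measured differences were 8.07, 7.82 and 7.91 log2 units, and the bound of the probe that passed was 6.21 on the same scale. The locus thus gave a measurable signal at 0.005 mM on probes brighter than the one that passed.

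Os06g0142200 was similar, and its 3 other probes had means of 1.55 to 1.59 at 1 mM against -4.24 to -4.08 at 0.005 mM, all detected on all 8 arrays. The passing probe carries the name of another transcript, Os06t0142350-01, as its second name, so which transcript it reads is not settled. In Os01g0963000, 2 probes passed. Of its other 2, one averaged -0.25 at 1 mM against -7.58 at 0.005 mM and was detected on 1 array at 0.005 mM, and the other was detected on 2 arrays at 1 mM and none at 0.005 mM.

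In other loci the probes disagreed. The passing probe of Os08g0127900 averaged -7.08 at 1 mM against -9.97 at 0.005 mM, while another probe was detected on all 8 arrays, at -3.70 at 1 mM and -3.72 at 0.005 mM. In Os11g0701100 the passing probe averaged -4.43 at 1 mM against -9.37 at 0.005 mM, while another stood at -3.15 at 1 mM and -3.21 at 0.005 mM. With no probe sequence in the files, whether the probes of such a locus read different transcripts or partly the RNA of a related gene was not tested.

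The members that passed on more than 1 probe formed a smaller group. In 25 loci at least 2 probes passed. Probes of 1 locus were read on the same arrays and by the same rule, so this is a description. The brightest 8 by mean level at 1 mM were Os02g0120100, Os06g0559400, Os01g0963000, PPDK2, NSHB2, Os08g0518900, Os11g0700900 and Os11g0701200. Os08g0518900, on chromosome 8, passed with all 3 of its probes. The brightest had -4.91, -2.45, -1.93 and -3.50 at 1 mM against -9.61, -9.39, -9.38 and -9.71 at 0.005 mM, and a bound of 22.6-fold. Os11g0700900, on chromosome 11, passed with 4 of its 6 probes, and Os11g0701200 with both.

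Position was not part of the rule. By chromosome, members made up from 0.470% of the loci on chromosome 3, 17 of 3618, to 0.889% on chromosome 8, 18 of 2025. Chromosome 1 held the most, 35 of 4169. Ordered along the chromosomes by locus number, 19 members lay next to another member, in 8 runs. The mirrored set had 6 such loci in 3 runs.

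The longest run was 4 loci on chromosome 11, and the stretch around it, Os11g0700900 to Os11g0702400, held 7 members among 16 loci on the array. The RefSeq gene table places RIXI, a xylanase inhibitor of the chitinase-like protein family, at this end of chromosome 11. It lists 3 genes with chitinase or Chib3H among their synonyms in a row of 6 that ends with RIXI. Which locus is which of those genes was not settled, except that RIXI was matched to Os11g0701800, which is not a member.

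Os11g0700900 had -5.42, -2.95, -2.39 and -3.22 at 1 mM against -9.83, -9.46, -9.48 and -9.92 at 0.005 mM, and a bound of 18.4-fold. Its brightest probe was one of the 2 that did not pass, detected on all 8 arrays with means of -1.86 at 1 mM and -4.10 at 0.005 mM. Os11g0701000 had -7.19, -4.97, -3.57 and -5.11 at 1 mM against -9.43, -9.21, -9.23 and -9.74 at 0.005 mM, and its SD of 1.49 was the largest of all members. All 4 loci of the run were lowest on replicate 1 and highest on replicate 3.

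Os11g0701200 had -3.79, -3.71, -3.21 and -3.77 at 1 mM against -7.70, -8.30, -7.75 and -8.36 at 0.005 mM. Os11g0702400 had -2.69, -2.59, -2.89 and -2.62 at 1 mM against -7.75, -7.43, -7.21 and -7.76 at 0.005 mM, and its other 2 probes were detected on all 8 arrays with differences of 4.56 and 4.58. Their SDs at 1 mM were 0.28 and 0.14, against 1.33 in Os11g0700900 and 1.49 in Os11g0701000. The last 2 members of the stretch, Os11g0701900 and Os11g0702200, were dim at 1 mM, at -6.84 and -6.46, with bounds of 1.81-fold and 2.35-fold.

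The other loci of the stretch did not all follow. Os11g0701300, Os11g0701600 and Os11g0701700 were detected on all 8 arrays with differences between -0.03 and 0.09. Os11g0702100 was 2.90 higher at 1 mM and was detected on all 8 arrays. Os11g0701400 was 1.18 lower and the RIXI locus Os11g0701800 was 0.78 lower at 1 mM. Neighbouring copies of a gene family can share sequence, so signal of related loci may be partly shared, which was not tested.

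**Figure D3:**
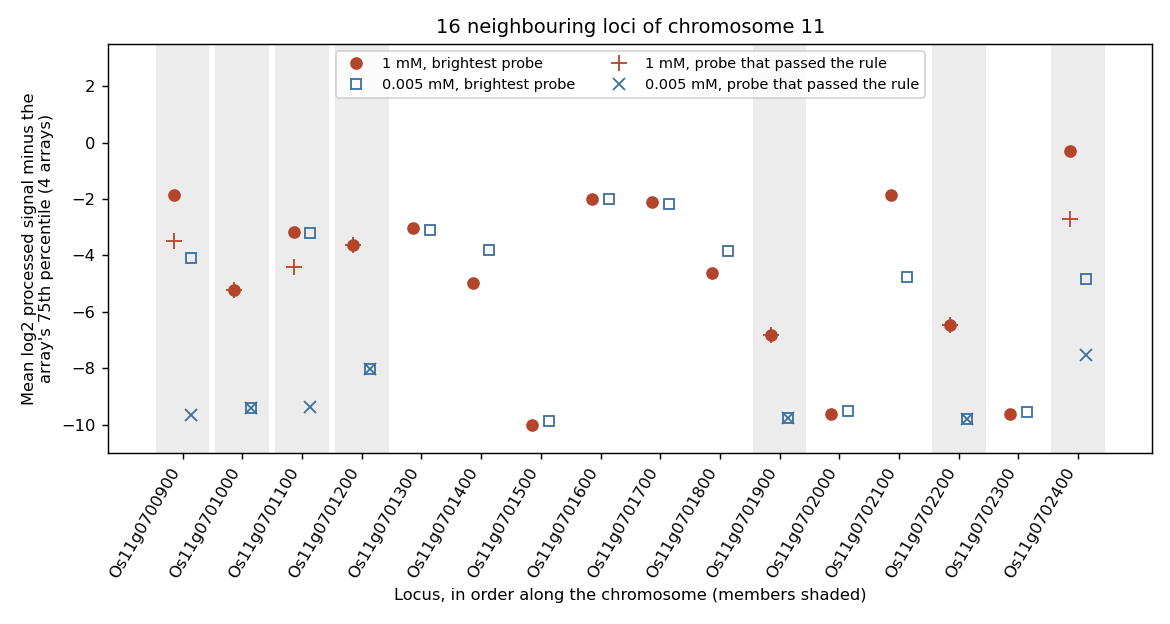
Mean level at 1 mM (filled circles) and 0.005 mM (open squares) of the brightest probe of each of 16 loci in a row on chromosome 11 (vertical axis, log2 processed signal minus the array's 75th percentile, 4 arrays a mean), with the probe that passed the rule as plus signs (1 mM) and crosses (0.005 mM) where a locus is a member. The 7 shaded members are interspersed with loci such as Os11g0701600 that stood at -2.01 at 1 mM and -1.99 at 0.005 mM.

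On chromosome 8, 3 neighbours were members. Beside Os08g0518900, Os08g0518800 had -5.11, -4.56, -4.56 and -4.93 at 1 mM against -8.37, -7.85, -8.60 and -9.60 at 0.005 mM, and Os08g0518600 had -5.90, -6.16, -6.53 and -6.14 at 1 mM against -8.84, -8.26, -9.25 and -8.34 at 0.005 mM. Their bounds were 7.49-fold and 2.86-fold. The neighbours differed in how they varied among replicates, since Os08g0518900 spread over 2.98 log2 units at 1 mM.

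A second stretch of chromosome 8, Os08g0346900 to Os08g0353700, held 4 members among 16 loci. Os08g0346900 had -2.95, -3.09, -3.45 and -3.10 at 1 mM against -9.88, -9.69, -9.67 and -8.26 at 0.005 mM, and its neighbour Os08g0347000 had -4.35, -4.35, -4.66 and -4.34 at 1 mM against -9.73, -9.49, -9.49 and -9.97 at 0.005 mM. Os08g0105400 and Os08g0105600, also neighbours on chromosome 8, averaged -4.45 ± 0.23 and -2.85 ± 0.18 at 1 mM (SD, n = 4 each), with bounds of 9.48-fold and 28.9-fold. In each of these 4 loci replicate 3 was the lowest array at 1 mM.

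Of the remaining runs, Os01g0123900 and Os01g0124000 on chromosome 1 had bounds of 4.24-fold and 1.99-fold, with means at 1 mM of -5.61 and -6.70. Os01g0937500 had -7.67, -6.49, -4.99 and -7.35 at 1 mM, and its neighbour Os01g0937600 had -6.39, -6.19, -4.29 and -6.31. Both stood highest on replicate 3. On chromosome 10, Os10g0452900 lay next to Os10g0453000, which averaged -4.55 at 1 mM and had a bound of 8.87-fold. Of the 6 non-members between Os10g0451900 and Os10g0453000 on the array, 4 were at least 1.64 higher at 1 mM as well.

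The members varied more among replicates than most probes did. The SD over the 4 arrays at 1 mM ran from 0.06 to 1.49 with a median of 0.28, while the median over all probes detected at 1 mM was 0.09. Dim probes vary more, so members between the quartiles of the members' level were set beside the 4488 detected probes in that range, and the median SDs were 0.28 for these members and 0.15 for the probes. An SD over 0.5 was seen in 50 members, or 24.3%, against 1.76% of all detected probes, and an SD over 1 in 13 members, or 6.31%, against 0.27%. No test was made, since the same arrays chose the members. The most even were Os04g0664500, with -2.16, -2.17, -2.06 and -2.08 at 1 mM and a bound of 47.8-fold, then Os02g0120100 and Os01g0963000. The least even were Os11g0701000, NSHB2 and Os02g0576600.

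The same arrays were low and high again and again. Among the 50 members with an SD over 0.5, replicate 1 was the lowest array in 27 and replicate 3 the highest in 32. Both held in 23, where replicate 3 exceeded replicate 1 by 1.08 to 3.62 log2 units with a median of 2.08. The opposite, replicate 3 lowest and replicate 1 highest, was seen in 2. Of the 13 members with an SD over 1, all were highest on replicate 3 and 11 were lowest on replicate 1. The array-wide picture leaned the same way, since of the 611 detected probes with an SD over 0.5, 52.4% were lowest on replicate 1 and 49.6% highest on replicate 3, and 35.5% were both, against 46.0% of the 50 members. The dim end of the scale was offset likewise. The dimmest signal well above background was -8.30, -7.56, -7.41 and -8.02 on replicates 1 to 4 at 1 mM. The part of this offset in the spread of dim members was not tested.

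The fixed list of fermentation enzymes and nonsymbiotic hemoglobins, to which NSHB2 belongs, had this order too. ADH1 (Os11g0210300), an alcohol dehydrogenase that regenerates NAD+ when oxygen is short, had 3.81, 5.35, 5.61 and 4.65 at 1 mM against 1.19, 1.31, 1.23 and 1.54 at 0.005 mM. NSHB1 (Os03g0233900), the other hemoglobin, had -0.17, 1.03, 1.53 and 0.22 at 1 mM against -3.78, -3.49, -3.33 and -2.995 at 0.005 mM. All 6 loci of the list were lowest on replicate 1 and highest on replicate 3 at 1 mM. All 6 were called higher at 1 mM by limma, against 32.3% of all units. The list was chosen with earlier results of these data known, and NSHB2 is itself a member, so these counts are only a description. Among the 50 variable members, 19 had all 4 arrays in the order seen in NSHB2, replicate 1 lowest, then 4, then 2, then 3. The same order was seen in 29.8% of the 611 variable probes and 38.0% of the 50 members. The dimmest signals well above background on the arrays at 1 mM had this order as well. Whether the members and the fermentation and hemoglobin list vary for a shared reason was not tested.

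**Figure D4:**
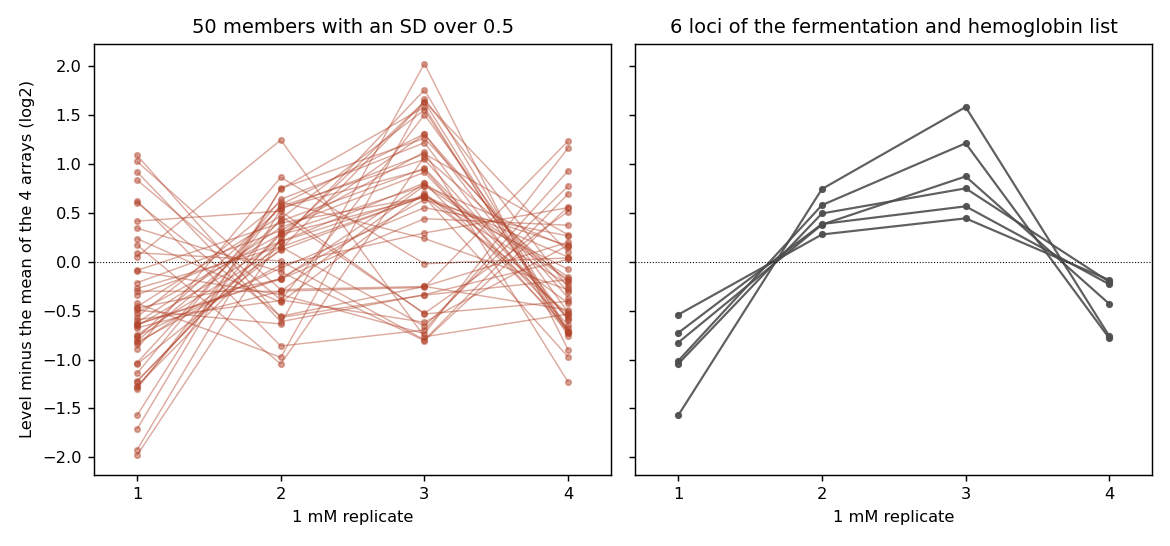
Level on each array at 1 mM minus the mean of the 4 arrays (vertical axis, log2) by replicate number (horizontal axis, numbers with no order), 1 line a locus, joined only to show which values belong together. The 50 members with an SD over 0.5 (left) and the 6 loci of the fermentation and hemoglobin list (right) tend to lie low on replicate 1 and high on replicate 3, with both true of 23 members and of all 6 listed loci.

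The other fixed gene lists held 2 members, 1 in the iron list and 1 in the seed list, counts too small to set against the 0.696% of all loci that were members. A list of iron acquisition genes, also chosen with earlier results of these data known, had 12 loci on the array. As a description only, limma tested 10 of them and called 8 higher and 2 lower at 1 mM. Over all units the shares were 32.3% higher and 43.8% lower. Of the 12 loci, 1 was a member. That member, Os01g0952800, had -5.93, -6.23, -6.65 and -5.77 at 1 mM against -9.59, -9.38, -9.40 and -9.91 at 0.005 mM, and a bound of 2.93-fold. Its usual symbol was not borne out by the gene table, so none is given. Os03g0307200, from the same list, averaged 5.25 ± 0.18 at 1 mM against -5.10 ± 2.23 at 0.005 mM (SD, n = 4 each), a measured difference of 10.35. It fell outside the rule because 3 arrays at 0.005 mM detected it.

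With 0.696% of all loci being members, nothing is read from short lists that held none. The list of 9 ammonium transport and assimilation loci held no member, and all 9 were detected on all 8 arrays. None of 7 phytoalexin, 4 defence and 2 ABA and LEA loci was a member either. Of 6 seed loci, GLUA1 was the only member, 3 were detected on all 8 arrays and 2 on none. The summed level of the seed list was -0.27 to 0.50 at 1 mM and -2.19 to -1.87 at 0.005 mM and Os08g0473900 alone averaged -0.03 at 1 mM and -3.24 at 0.005 mM. The part of seed tissue in the level of GLUA1 was not tested.

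The probes of the members differed a little in origin from the rest. Of the 238 passing probes, 71.4% were designed on a cDNA and 28.6% on a predicted transcript. The cDNA share was 81.2% among probes detected on all arrays at 1 mM, 77.1% among all probes named for loci, and 64.2% among the 106 probes of the mirrored set. For 5 passing probes, or 2.1%, the file's second name gave another locus, and for 31, or 13.03%, it gave none.

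In the authors' deposited table of log2 ratios, 225 of the 238 passing probes were listed, from 195 member loci. The 13 not listed included both probes of NSHB2 and the passing probes of Os11g0701000, Os02g0576600, Os01g0937500 and Os01g0937600. The authors' deposited table holds features with a q-value of at most 0.05, and lists 64.9% of all non-control spots, so being listed was common and follows from the contrast that chose the members. The authors' deposited table gave all 225 a positive ratio, from 1.69 to 10.07 with a median of 3.26. Over those probes the ratio in the authors' deposited table minus the difference used here had a median of -0.14 log2 units. In the authors' deposited table as a whole, 9524 of 28381 features had a positive ratio.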

How the data were processed

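RNA of whole rice roots was measured on 8 1-colour Agilent arrays, 4 biological replicates a concentration, grouped by the sample titles. The deposited intensity values are processed signals of Agilent Feature Extraction 10.10.1.1, background-corrected per the file headers, with flags for background, saturation and outliers on each spot. The authors' deposited table also holds log2 ratios, p-values and q-values, per its header, and of these the log2 ratios were used. Its 8 columns of per-array signals are headed by nitrogen status and replicate, words that no sample title uses, and were left aside.

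From the signals, control spots were removed, spots of 1 probe averaged, log2 taken and the 75th percentile of each array subtracted. The rule on flags and the log2 difference of 2 chose the members. The fold bound is the mean at 1 mM minus the mean, over the arrays at 0.005 mM, of the higher of the probe's own level and the lowest level well above background. limma 3.58.1 in R 4.3.3 (lmFit, eBayes, Benjamini-Hochberg over all units) was fitted on probes well above background on at least 4 of 8 arrays, with the brightest kept probe for each locus, to give the share of calls over the array. The fit was checked on simulated data. Counting depth does not apply to arrays, whose number limits the precision.

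The members and the gene lists were chosen with earlier results of these data known. Members were named by rule: the 12 highest bounds, up to 8 loci with several passing probes, the 6 longest runs of neighbours, 3 loci on each side of the threshold, members of the lists, and the 3 largest and 3 smallest SDs. Members outside it were named after their values were seen: PPDK2 was given its symbol then, and SUS3, Os11g0701900, Os11g0702200, Os11g0702400, Os08g0127900, Os03g0859100, Os06g0202600, Os08g0353700, Os10g0451900 and Os10g0453000 were named then. Of 110 locus and symbol pairs written from general knowledge, 63 could be set against the RefSeq gene table (ASM3414082v1) and 48 of these lay within 0.5 Mb of the place their neighbours predicted. Members' groups were compared by values alone. Replicate numbers were not taken as pairs, since same-numbered arrays deviated together with correlations of 0.32, -0.00864, 0.102 and 0.0714. The files hold no mean signal column, so normexp (offset 50) used the median signal. Other scalings, thresholds, flags, probe rules and each array left out in turn were tried.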

Additional observations from a re-analysis of the deposited data

Results flagged for a closer look

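The level of each named member was examined in each group of 4 arrays for 1 array far from the others, by the gap to the nearest array over the whole range, set against Dixon's critical value. Of 68 groups examined, 9 passed it. The critical value is set to flag about 1 group in 20 by chance. The named members include those with the largest SDs, and the groups share the same arrays. The 9 can therefore not be set against that rate. At 1 mM, replicate 3 stood high in Os01g0937600 (-4.29 against -6.39 to -6.19, ratio 0.906), Os02g0576600 (-4.60 against -7.53 to -7.13, ratio 0.861), Os11g0701200 (-3.21 against -3.79 to -3.71, ratio 0.852) and Os01g0124000 (-6.52 against -6.78 to -6.74, ratio 0.833). It stood low in Os08g0347000 (-4.66 against -4.35 to -4.34, ratio 0.97). Replicate 4 at 1 mM stood low in Os10g0334500 (-0.11 against 0.35 to 0.44, ratio 0.835).

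At 0.005 mM, where all of these probes were below detection, replicate 4 stood high in Os08g0346900 (-8.26 against -9.88 to -9.67, ratio 0.873) and low in Os12g0503000 (-10.00 against -9.72 to -9.67, ratio 0.844). Replicate 1 stood low in Os01g0124000 (-9.83 against -8.79 to -8.59, ratio 0.835).

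Among 588 probes named for no locus, 2 had the same pattern and size, and 0 the mirrored one. The probe named osa-miR169i had -6.27, -5.89, -5.93 and -6.40 at 1 mM against -7.97, -8.79, -8.86 and -8.44 at 0.005 mM, a bound of 2.98-fold. The probe named osa-miR169j had -6.73, -6.54, -6.71 and -7.17 at 1 mM against -9.08, -9.29, -9.15 and -8.94 at 0.005 mM, a bound of 1.88-fold. These are array probes named for microRNA transcripts and do not measure the mature microRNA.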

How the results depend on the processing

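The count of member loci was 189 without scaling between arrays, 204 after quantile normalization and 185 with spike-in scaling, and stayed at 206 with outlier-flagged spots kept. It fell to 41 with normexp (chosen after seeing the data), to 136 with a difference of at least 3, to 107 with a bound of at least 4-fold (also chosen after seeing the data) and to 74 with the weaker detection flag, while 160 loci passed with every probe. Leaving out 1 array at a time gave 208 to 250 loci, with 250 without replicate 4 at 0.005 mM. Calls of units as higher fell to 4021 under spike-in scaling and to 4883 with no scaling, and leaving out 1 array gave 7523 to 7897. The same settings gave 16074, 14729 and 10360 to 10976 units called lower. The median difference over all units was -0.0871, and -0.357 and -0.467 without scaling and with spike-in scaling. With the replicate number as a block, limma called 8106 units higher and 11011 lower, and no list of members rests on that fit. Normexp moved the bound of 28 of the 34 named members and spike-in scaling that of 19 by more than the replicate SD. With normexp the log2 bound fell from 7.97 to 5.84 in Os10g0334500 and from 7.195 to 4.986 in Os01g0138800. With spike-in scaling the bound of Os06g0229800 became -0.05 on the log2 scale, below equality. Normexp on the mean signal could not be run, and a slide block could not be fitted because each slide holds 1 group. Dim signal limits the fold of most members to a bound.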
